A study of Homo sapiens with 18 samples.

Results

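The genes described here encode 10 carriers that move amino acids across the plasma membrane: SLC7A11, SLC7A5, SLC3A2, SLC1A4, SLC1A5, SLC38A1, SLC38A2, SLC7A1, SLC7A7 and SLC43A1. They were chosen by gene symbol, and each was represented by its probe set with the highest mean among those assigned to 1 gene. All 10 were measured, out of 18417 genes on the arrays, and no filter on dim signal was applied. SLC1A5 was the only member with a second such probe set. The cells were Raji, a widely used line of Burkitt lymphoma B cells that carries Epstein-Barr virus. Per the labels, every group was induced with phorbol ester (0.05 µM) and sodium n-butyrate (3 mM) and received maslinic acid, a plant triterpene (19 µM). The 6 groups differ only in harvest time: 0, 4, 8, 12, 24 or 48 h. Each has 3 arrays, named as biological replicates in the labels, which makes 18 arrays in all. The 0 h arrays carry the same 3 agents in the labels, and no untreated arm or arm with a single agent was analysed here. Differences from 0 h therefore cannot be assigned to any agent, and agent and time in culture cannot be told apart.

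Several of these carriers work as obligate pairs or as exchangers. SLC3A2 (4F2hc, CD98) is the heavy chain that brings light chains to the cell surface. Its partners include SLC7A11 (xCT), which exports glutamate in exchange for cystine, the source of cysteine for glutathione, SLC7A5 (LAT1), which imports leucine and other large neutral amino acids, and SLC7A7 (y+LAT1), which exchanges cationic for neutral amino acids. SLC38A1 and SLC38A2 (SNAT1 and SNAT2) take up glutamine and alanine together with sodium. SLC1A5 (ASCT2) exchanges neutral amino acids such as glutamine, serine and alanine, and SLC1A4 (ASCT1) those such as serine and alanine. SLC7A1 (CAT1) imports arginine and lysine, and SLC43A1 (LAT3) carries branched-chain amino acids and phenylalanine. Many of these genes are known targets of ATF4, a transcription factor of the response to amino acid shortage, and SLC7A11 is also a known target of NRF2, the main activator of antioxidant genes.

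Values are log2 intensities, so a difference of 1 is a doubling of signal. Levels of different probe sets are not tested against each other. Percentiles place a signal among those of all measured genes and do not rank amounts of RNA. SLC38A1 and SLC38A2 averaged 10.35 and 10.18 over the 18 arrays, at the 99.3rd and 99.0th percentile of all measured genes. SLC7A11 averaged 9.00, SLC7A5 8.02, SLC7A1 7.05, SLC1A5 6.42, SLC3A2 6.23, SLC43A1 5.27 and SLC1A4 5.13. The mean of SLC7A7 was 3.96, at the 38.8th percentile, and its arrays spanned 3.59 to 4.34, around the array medians of 4.03 to 4.25. Array interquartile ranges lay between 2.37, on replicate 2 of 8 h, and 3.16, and no pair of arrays was identical. Of the B-cell markers, 6 of 7 were measured, and MS4A1 (CD20) had a level of 10.03 ± 0.48 (SD, n = 3) at 0 h. The mean over the B-cell list was 7.66 to 8.01 across the 0 h arrays and 6.27 to 6.99 across the 48 h arrays, and its part in the results below was not tested. The T cell, monocyte, epithelium, fibroblast and erythroid lists had means between 2.94 and 3.94 on every array. In such bulk samples, fewer cells of a type and less RNA per cell cannot be told apart.

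**Figure D1:**
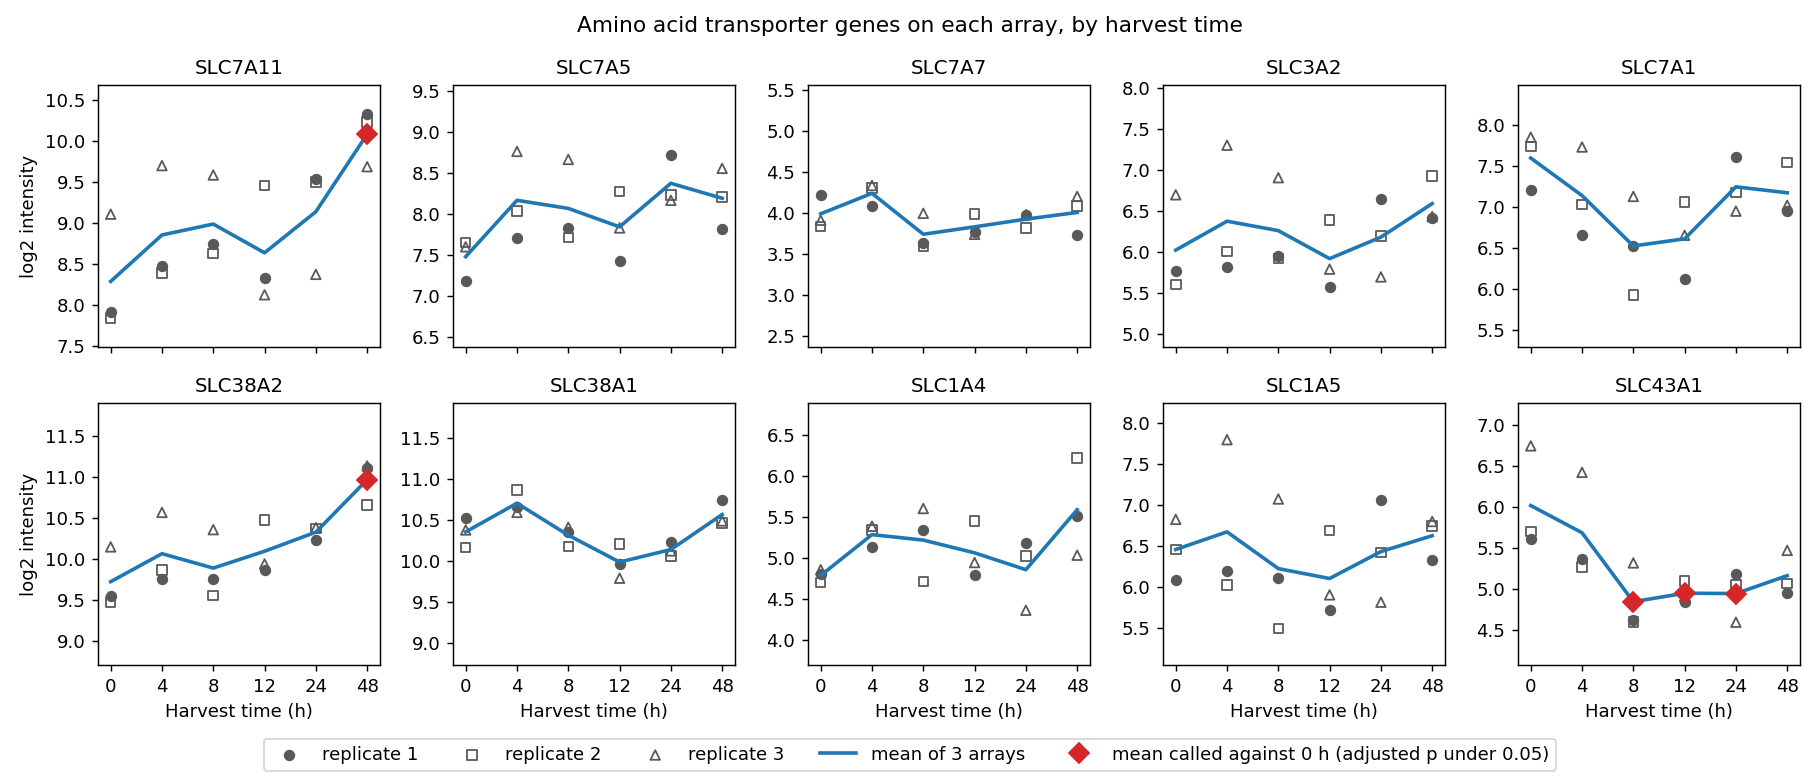
Log2 intensity (vertical axis) of each transporter gene against harvest time in h (horizontal axis), with 1 panel per gene, 1 point per array, a line through the means of the 3 arrays and a red diamond on means called against 0 h. SLC7A11 and SLC38A2 had their highest means at 48 h (10.08 and 10.97), while SLC43A1 dropped from a mean of 6.02 at 0 h to 4.85 at 8 h.

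Promoter sequence was looked up to see which members carry the letters of known response elements. RefSeq windows of 300 bases (250 before to 50 after the annotated start, GRCh38.p14) were at hand for 9 of the 10 members, in 18 windows, and SLC7A11 was not among them. The C/EBP-ATF response element, the composite site that ATF4 dimers bind, was searched as TGATGNAAN on both strands. It matched in 5 of the 9 member genes, against 4.45% of 27305 genes, and in 5 of the 18 member windows, against 3.61% of 35116 windows. These 5 matches are printed because ATF4 targets are among the genes measured below. Each is given 5′ to 3′ along the strand of its gene, with the matched letters in capitals and up to 10 bases on either side, cut at the end of the window. TTTGCATCA and CTTACATCA are the element read from the opposite strand.
SLC1A4: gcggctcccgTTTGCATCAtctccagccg
SLC3A2: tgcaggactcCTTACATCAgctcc
SLC38A1: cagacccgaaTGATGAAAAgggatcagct
SLC7A1: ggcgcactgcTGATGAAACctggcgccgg
SLC1A5: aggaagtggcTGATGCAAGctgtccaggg

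The SLC1A4 stretch lies at chr2:64989381-64989409 on the plus strand, with the element at positions -8 to 1, counted from the annotated start with the first transcribed base as 1. The SLC3A2 stretch is at chr11:62881725-62881748 on the plus strand, with the element at positions 37 to 45. On the minus strand, the SLC38A1 stretch at chr12:46266502-46266530 holds it at positions -4 to 5 and the SLC7A1 stretch at chr13:29595663-29595691 at 8 to 16. The SLC1A5 stretch, also on the minus strand, is at chr19:46784893-46784921 and holds it at -97 to -89. The antioxidant response element, to which NRF2 binds, was searched as TGACNNNGC and matched in 5 of 9 member genes against 16.1% of all genes. AP-1, the site of the FOS and JUN factors that phorbol esters are known to activate, was searched as TGACTCA and matched in 2 of 9 against 6.05%. The E-box CACGTG, which MYC and TFEB bind, matched in 4 of 9 against 8.77%. By window, these elements matched in 5, 2 and 4 of the 18 member windows, against 13.3%, 4.95% and 7.26% of all windows. The members have more windows per gene than all genes do, which raises their share by gene. In SLC3A2 an AP-1 match lies inside an antioxidant element match, and this stretch is shown because SLC3A2 serves several members, beside the other AP-1 match in SLC38A1.
SLC3A2: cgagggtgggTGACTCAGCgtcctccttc
SLC38A1: tgaaatagagTGACTCAccgggagggg

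These stretches are at chr11:62881652-62881680 on the plus strand, with the element at -37 to -29, and at chr12:46266557-46266583 on the minus strand, with it at -57 to -51. A match describes letters in a window and shows no binding.

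The first comparison asked which members differed from 0 h at any later time. In limma's moderated F test over the 5 differences from 0 h, 3 of the 10 members passed an adjusted p of 0.05, against 16.4% of all 18417 genes: SLC38A1 (adjusted p = 0.0160), SLC38A2 (0.0186) and SLC43A1 (0.0482). Against 0 h with limma and Benjamini-Hochberg adjustment, 0 members were called at 4 h, where 1.75% of genes were called and 2 members, SLC7A5 and SLC38A1, had an unadjusted p under 0.05, as had 13.0% of genes. SLC43A1 alone was called, as lower, at 8 h (6.68% of genes called, 3.18% as lower), at 12 h (8.05% and 4.14%) and at 24 h (12.5% and 5.74%). SLC7A11 and SLC38A2 were called, both as higher, at 48 h (15.0% of genes called, 6.92% as higher). The arrays of 3, 3, 2, 3 and 5 members did not overlap those of 0 h at 4, 8, 12, 24 and 48 h, where the same held for 18.4%, 19.2%, 27.9%, 27.4% and 28.4% of all genes. All 5 comparisons share the 0 h arrays. In order of time, the 10 members had median differences of 0.35, 0.06, -0.13, 0.02 and 0.39 from 0 h, and all genes had medians of 0.03, -0.02, 0.05, -0.01 and 0.05.

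**Figure D2:**
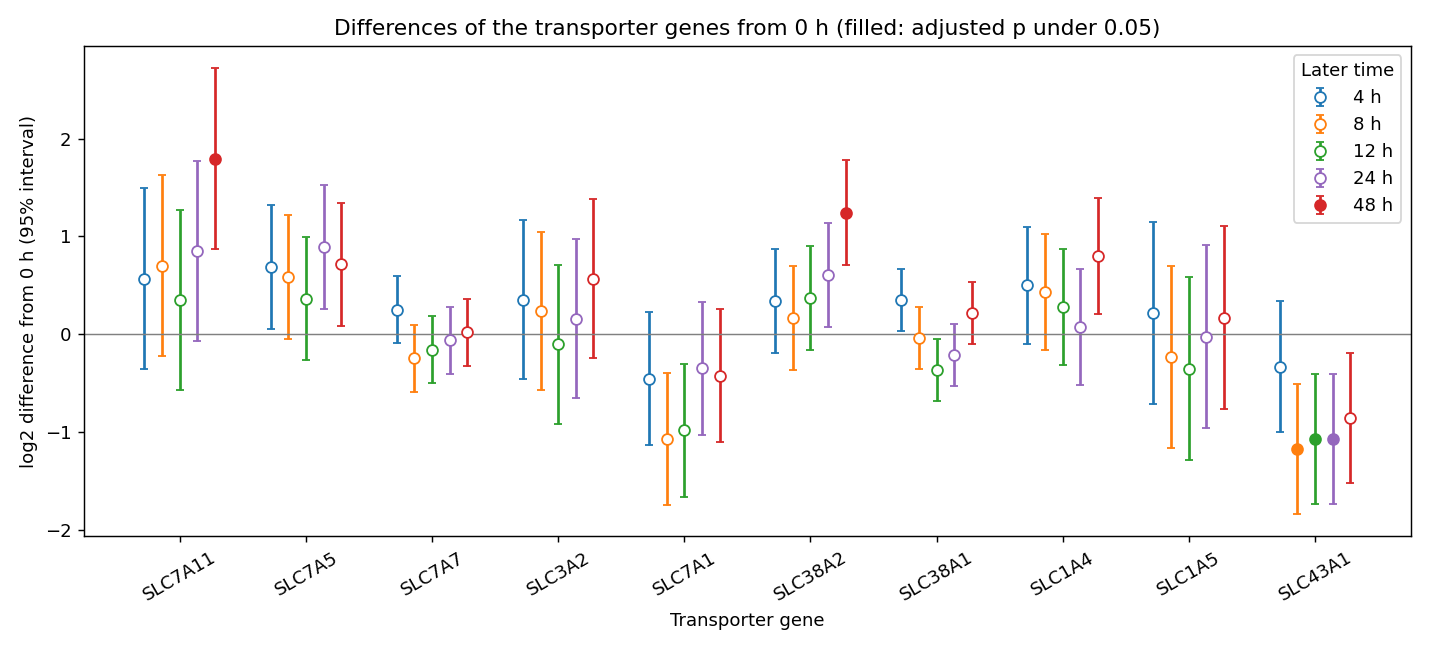
Difference in log2 intensity from 0 h (vertical axis) for each transporter gene (horizontal axis) at the 5 later times, with 95% intervals of the fit that do not allow for multiple tests, and filled points where the adjusted p was under 0.05. The filled points are SLC7A11 and SLC38A2 at 48 h, above 0, and SLC43A1 at 8, 12 and 24 h, below 0.

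Among the heavy chain and its light chains, SLC7A11 rose 3.47-fold by 48 h. Its 0 h levels were 7.92, 7.84 and 9.11 in replicates 1, 2 and 3, and its 48 h levels were 10.33, 10.23 and 9.69. Every 48 h array was above every 0 h array, although replicate 3 of 0 h stood 1 log2 unit or more above the other arrays of its time. The difference was 1.80 (SE 0.44, 95% interval 0.87 to 2.72, limma adjusted p = 0.00837). Between these times the levels were 8.47, 8.39 and 9.70 at 4 h, 8.75, 8.63 and 9.58 at 8 h, 8.33, 9.46 and 8.12 at 12 h and 9.54, 9.50 and 8.37 at 24 h. Each of these times overlapped 0 h, with differences of 0.57, 0.70, 0.35 and 0.85 and adjusted p from 0.270 to 0.719. Leaving out replicate 2 of 0 h ended the call at 48 h (difference 1.57, adjusted p = 0.0506), and the F test over all times gave an adjusted p of 0.0807.

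SLC3A2, the shared heavy chain, showed no called difference at any time. Its levels were 5.77, 5.60 and 6.70 at 0 h, 5.82, 6.01 and 7.30 at 4 h, and 5.95, 5.92 and 6.91 at 8 h. They were 5.57, 6.39 and 5.79 at 12 h, 6.65, 6.20 and 5.70 at 24 h, and 6.41, 6.93 and 6.43 at 48 h. All later times overlapped 0 h. The difference at 48 h was 0.57 (SE 0.39, 95% interval -0.25 to 1.38, limma adjusted p = 0.399), an interval that holds both no change and a doubling.

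SLC7A5 had levels of 7.18, 7.65 and 7.60 at 0 h. They were 7.70, 8.03 and 8.76 at 4 h, 7.82, 7.71 and 8.66 at 8 h, 7.42, 8.27 and 7.83 at 12 h, 8.72, 8.23 and 8.16 at 24 h and 7.81, 8.20 and 8.55 at 48 h. Its arrays lay above all 0 h arrays at every later time other than 12 h. No difference was called: the one at 24 h, 0.89 (SE 0.30, 95% interval 0.26 to 1.53), had a limma adjusted p of 0.0619, and those at 4, 8, 12 and 48 h were 0.69, 0.59, 0.36 and 0.71. SLC7A7 stayed near the array medians, with means of 3.99, 4.25, 3.75, 3.84, 3.93 and 4.01 in order of time. The difference of SLC7A7 from 0 h farthest from 0 was 0.25, at 4 h (95% interval -0.09 to 0.59, limma adjusted p = 0.571). The monocyte and macrophage marker list, from cells known for SLC7A7, had means of 3.29 to 3.70 on the 18 arrays.

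To ask whether the light chains moved apart from the heavy chain, the log2 ratio of each to SLC3A2 was taken on each array and expressed as the change from its mean at 0 h. For SLC7A11 these changes were -0.12, -0.03 and 0.15 on the 0 h arrays, 0.53, 0.44 and 0.41 at 8 h, 0.62, 1.04 and 0.41 at 24 h, and 1.65, 1.04 and 0.99 at 48 h. The arrays of these 3 later times did not overlap 0 h, with mean changes of 0.46 (SE 0.08), 0.69 (SE 0.20) and 1.23 (SE 0.23). At 4 h they were 0.39, 0.12 and 0.13 and at 12 h 0.49, 0.80 and 0.07, and both times overlapped 0 h (mean changes 0.21 and 0.45, exact permutation p = 0.3 and 0.2). With 3 arrays a time the two-sided exact permutation test cannot go below p = 0.1, the value reached at 8, 24 and 48 h (adjusted p = 0.357 over 25 ratio tests). On the 0 h arrays the ratio spanned less than the level of SLC7A11 did, and replicate 3 there was high for both genes. For SLC7A5 the changes in the ratio to SLC3A2 were between 0.15 and 0.74 and for SLC7A7 between -0.55 and -0.05, and the arrays overlapped 0 h at every time.

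**Figure D3:**
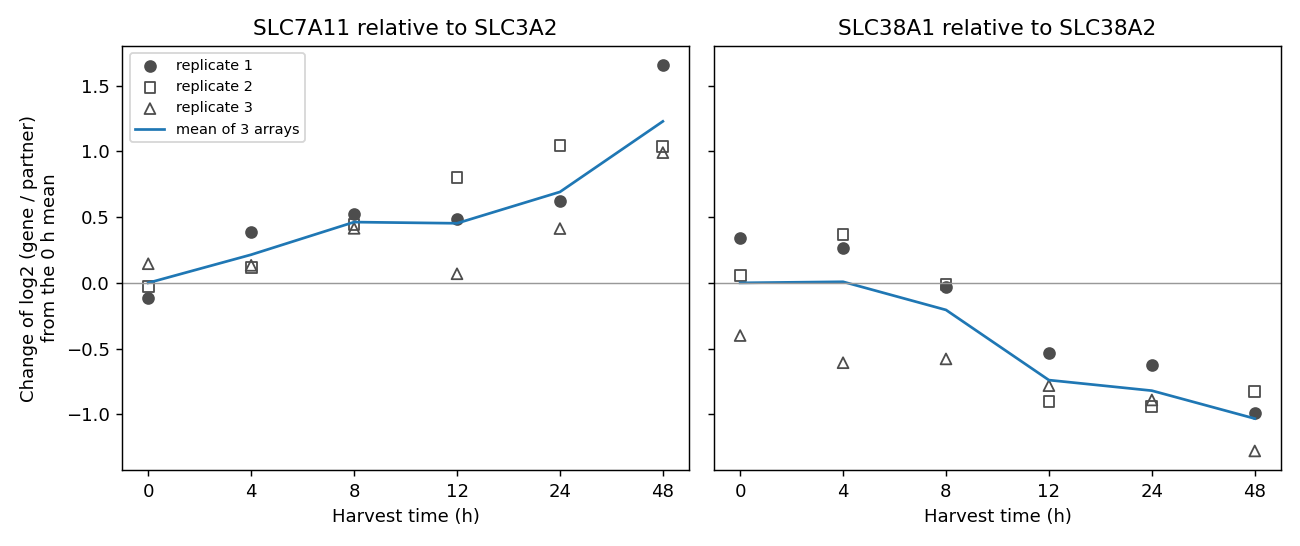
Change from the 0 h mean of the log2 ratio of partner genes (vertical axis) against harvest time in h (horizontal axis), with 1 point per array and a line through the means. The ratio of SLC7A11 to SLC3A2 reached a mean change of 1.23 at 48 h and that of SLC38A1 to SLC38A2 a mean change of -1.03.

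Of the sodium-coupled glutamine carriers, SLC38A2 rose 2.37-fold by 48 h. Its levels were 9.55, 9.48 and 10.15 at 0 h and 11.11, 10.67 and 11.14 at 48 h, with no overlap. The difference was 1.24 (SE 0.25, 95% interval 0.71 to 1.78, limma adjusted p = 0.00212). This call was kept in all 13 alternative fits, with adjusted p from 0.000509 to 0.0157. At 24 h the levels were 10.23, 10.38 and 10.39, also above every 0 h array, but the difference of 0.60 was not called (adjusted p = 0.151). The levels were 9.76, 9.87 and 10.57 at 4 h, 9.76, 9.56 and 10.36 at 8 h and 9.87, 10.48 and 9.94 at 12 h, all overlapping 0 h. By mean the order from lowest was 0, 8, 4, 12, 24 and 48 h, and no neighbours in time were called different. Leaving out replicate 1 or 3 of 48 h ended the F test call (adjusted p = 0.0830 and 0.0778).

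SLC38A1 passed the F test but no single difference from 0 h. Its levels were 10.52, 10.16 and 10.38 at 0 h, 10.66, 10.87 and 10.59 at 4 h and 10.36, 10.18 and 10.41 at 8 h. They were 9.97, 10.21 and 9.79 at 12 h, 10.24, 10.06 and 10.12 at 24 h and 10.75, 10.46 and 10.49 at 48 h. The 4 h arrays all lay above the 0 h arrays, while 12 h had the lowest mean, 9.99 against 10.36 at 0 h. The differences were 0.35 at 4 h (limma adjusted p = 0.322) and -0.37 at 12 h (0.160), with an SE of 0.15 that was the smallest among the members. Leaving out replicate 2 of 4 h ended the F test call (adjusted p = 0.0503). The change in the log2 ratio of SLC38A1 to SLC38A2 was -0.74 (SE 0.24) at 12 h, -0.82 (SE 0.24) at 24 h and -1.03 (SE 0.25) at 48 h. The arrays of these times did not overlap 0 h, and the exact permutation test gave its smallest p of 0.1 at each. At 4 and 8 h the ratio overlapped 0 h, with changes of 0.01 and -0.21.

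SLC1A4, an exchanger of serine, alanine and other neutral amino acids, had levels of 4.80, 4.70 and 4.86 at 0 h and 5.51, 6.22 and 5.03 at 48 h. The groups did not overlap, but the difference of 0.80 (SE 0.28, 95% interval 0.21 to 1.40) had a limma adjusted p of 0.0670. Its 4 h levels of 5.13, 5.34 and 5.39 also lay above 0 h, with a difference of 0.50 (adjusted p = 0.498). At 8, 12 and 24 h it overlapped 0 h, with levels of 5.34, 4.71 and 5.60, then 4.79, 5.45 and 4.95, then 5.18, 5.03 and 4.36.

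SLC1A5, the glutamine exchanger, had levels of 6.09, 6.46 and 6.83 at 0 h, 6.20, 6.03 and 7.80 at 4 h, and 6.11, 5.50 and 7.08 at 8 h. They were 5.72, 6.69 and 5.91 at 12 h, 7.07, 6.42 and 5.82 at 24 h and 6.34, 6.75 and 6.80 at 48 h. Every time overlapped 0 h, and the differences ran from -0.35 to 0.22 with an SE of 0.44. Its second probe set had means of 4.53, 5.04, 4.68, 4.88, 4.54 and 4.71 in order of time. The probe sets differed in sign from 0 h at 8, 12 and 24 h. In the log2 ratio of SLC1A4 to SLC1A5, 12 h was the only time with no overlap, with a change of 0.63 (SE 0.22, exact permutation p = 0.1).

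SLC43A1, a carrier of branched-chain amino acids, fell 2.25-fold by 8 h. Its levels were 5.61, 5.70 and 6.75 at 0 h, 5.37, 5.27 and 6.43 at 4 h and 4.63, 4.60 and 5.32 at 8 h. They were 4.84, 5.10 and 4.91 at 12 h, 5.19, 5.05 and 4.60 at 24 h and 4.96, 5.07 and 5.47 at 48 h. From 8 h on, every array lay below all 0 h arrays, and 4 h overlapped 0 h. The differences were -1.17 at 8 h (95% interval -1.84 to -0.51, limma adjusted p = 0.0314), -1.07 at 12 h (0.0448), -1.07 at 24 h (0.0316) and -0.85 at 48 h, which was not called (0.0817), each with an SE of 0.32. Without replicate 3 of 0 h, the highest array, the differences were -0.81, -0.705 and -0.71 at 8, 12 and 24 h, and all 3 calls were lost (adjusted p = 0.164, 0.223 and 0.175). The call at 8 h also went without replicate 1 or 2 of 8 h (adjusted p = 0.113 and 0.109), that at 12 h without replicate 2 of 0 h (0.0561) or any 12 h array (0.0826 to 0.141), and that at 24 h without replicate 2 or 3 of 24 h (0.0664 and 0.128). The F test lost its call in 13 of the 18 fits that left out 1 array, with adjusted p up to 0.130.

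SLC7A1, which imports arginine and lysine, had levels of 7.20, 7.73 and 7.85 at 0 h, 6.52, 5.93 and 7.13 at 8 h and 6.12, 7.06 and 6.65 at 12 h. Both later times lay below all 0 h arrays. The differences of -1.07 at 8 h (SE 0.32, 95% interval -1.75 to -0.39, limma adjusted p = 0.0551) and -0.99 at 12 h (0.0715) were not called. With the replicate number as a block, the difference at 8 h was called (SE 0.31, adjusted p = 0.0486). At 4 h the levels were 6.66, 7.03 and 7.73, at 24 h 7.61, 7.18 and 6.95 and at 48 h 6.95, 7.54 and 7.02, all overlapping 0 h.

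Between neighbouring times, limma called 0 members. Of all genes, 0.223% were called from 4 to 8 h, 0% from 8 to 12 h, 1.37% from 12 to 24 h and 0.402% from 24 to 48 h. At an unadjusted p under 0.05 there were 3 members from 4 to 8 h (SLC38A1, SLC7A7 and SLC43A1, with differences of -0.39, -0.50 and -0.84) and 1, SLC38A1, from 8 to 12 h (-0.33). There were 0 from 12 to 24 h and 4 from 24 to 48 h (SLC7A11, SLC1A4, SLC38A1 and SLC38A2, with differences of 0.95, 0.73, 0.43 and 0.64). Of all genes, 8.58%, 6.63%, 11.1% and 9.47% had an unadjusted p under 0.05 over these 4 intervals.

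Within a time, the members tended to be high or low on the same arrays. Replicate 3 held the highest value of the 3 arrays for 7 of the 10 members at 0 h, for 9 at 4 h and for 10 at 8 h. Replicate 2 did so for all 10 at 12 h and replicate 1 for 8 at 24 h, while at 48 h the highest values were divided among the arrays (2, 3 and 5 members). After the mean of each time was taken off, the correlation between members over the 18 arrays had a median of 0.62 over the 45 pairs, and 44 pairs were above 0. The highest was 0.91, between SLC7A11 and SLC3A2, the subunits of the cystine carrier. SLC3A2 also had 0.91 with SLC1A5, 0.88 with SLC43A1 and 0.86 with SLC7A1, which are not among its partners named above. With its light chains SLC7A5 and SLC7A7 it had 0.78 and 0.42, so high values were not particular to the pairs. The lowest was -0.05, between SLC38A1 and SLC43A1. By its correlation with SLC3A2, SLC7A11 ranked 13th among 18416 genes. These points share arrays and the scaling of each array. The mean deviation of the members also moved with the interquartile range of the array (r = 0.70 over 18 arrays, with 0.23 to 0.72 for single members and a median of 0.09 over all genes), and the part of this in the results was not tested.

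**Figure D4:**
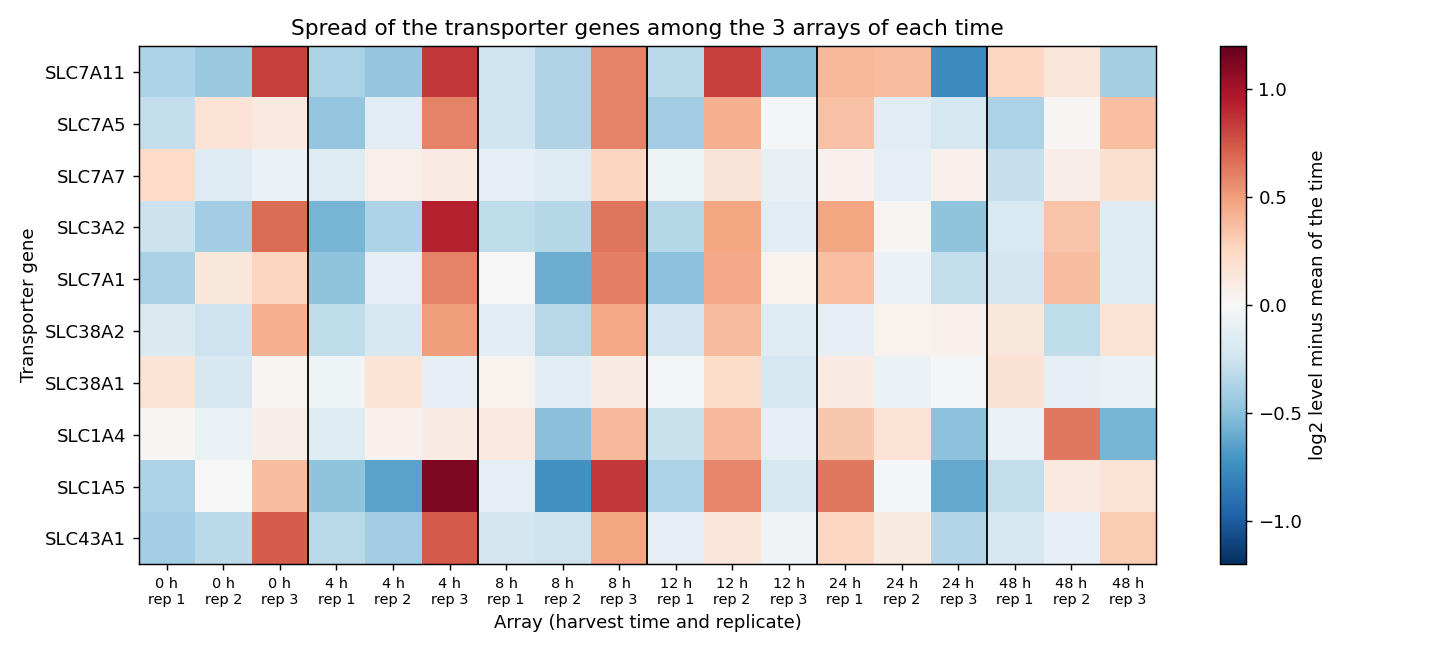
Deviation of each transporter gene (vertical axis) on each array (horizontal axis, by harvest time and replicate) from the mean of its 3 arrays of that time, in log2 units by colour, red above and blue below the mean. All 10 members are red on replicate 3 of 8 h and on replicate 2 of 12 h, and the row of SLC38A1 is pale.

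The genes whose profiles were most like those of SLC38A1 and SLC38A2, the members with the smallest F test p, were found by Pearson correlation over the 18 arrays among 18407 genes. For SLC38A1 they were TBL1XR1 (r = 0.85), SMNDC1 (0.79) and SYVN1 (0.78). For SLC38A2 they were CHD2 (0.88), SLC1A3 (0.86), a glutamate carrier, and TFG (0.85). The 18 arrays share their times and scaling, and these values are a description. The genes named for SLC38A2 were picked because they followed it on these arrays, and SLC38A2 itself rose by 48 h. Low p-values at 48 h were favoured by that choice and are no separate support. SLC1A3 rose from a mean of 3.38 at 0 h to 4.18 at 48 h (limma adjusted p = 0.00362). Its 0 h mean lay below the array medians of 4.03 to 4.25. TFG rose from 6.77 to 8.08 (0.000205), while the difference of CHD2, 0.65, was not called (0.135).

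Of 36 other amino acid transporters on the arrays, 5 passed the F test, near the 16.4% of all genes. Against 0 h, 0 were called at 4 h by limma, where 1.75% of all genes were called. At an unadjusted p under 0.05 there was 1, against 13.0% of all genes. Later calls were 3 higher at 8 h, and 3 higher and 1 lower at 12 h and at 24 h. At 48 h, 4 were higher and 1 lower. In turn, 6.68%, 8.05%, 12.5% and 15.0% of all genes were called at 8, 12, 24 and 48 h. The list's median difference was 0.06 at 48 h, against 0.05 over all genes. SLC36A1, which exports small amino acids from lysosomes, had levels of 4.85, 4.42 and 4.58 at 0 h and 6.03, 6.12 and 5.89 at 24 h, with no overlap. It rose by 1.39 (SE 0.20, adjusted p = 0.000124), and was called from 8 h on. CTNS, the lysosomal cystine exporter, had 4.38, 4.54 and 4.34 at 0 h and 5.77, 5.08 and 5.79 at 24 h, and rose by 1.13 (SE 0.20, adjusted p = 0.000940). It was also called at 8, 12 and 48 h. The 12 h call was lost with quantile normalization (adjusted p = 0.0574) and with median centring (0.0513). It was also lost without replicate 1 or 3 of 0 h or replicate 1 or 2 of 12 h (adjusted p = 0.0629 to 0.102). SLC1A1, a neuronal and epithelial carrier of glutamate and cysteine, was higher at 12 h, with 6.17, 5.96 and 6.01 against 5.20, 4.94 and 4.84 at 0 h (difference 1.06, SE 0.16, adjusted p = 0.000371), and its 48 h arrays overlapped 0 h. Its calls at 8 and 24 h were lost in 4 and 3 of 13 alternative fits (adjusted p up to 0.124 and 0.0623). SLC38A5, a glutamine carrier, fell by 0.97 to 3.78, 3.91 and 3.79 at 48 h from 4.93, 5.10 and 4.36 (SE 0.19, adjusted p = 0.00138). The remaining calls at 48 h, named after their values were seen, were SLC1A3 and SLC66A1, a lysosomal exporter of cationic amino acids (0.74).

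The list for ATF4 and the amino acid response does not hold the members. Of its 23 measured genes, 6 passed the F test, against 16.4% of all genes. None was called at 4 h by limma, where 1.75% of all genes were called. At an unadjusted p under 0.05 there were 3, against 13.0% of all genes. At 8 h 1 was lower and at 12 h 3 were lower, where 6.68% and 8.05% of all genes were called. At 24 h 2 were higher and 2 lower, and at 48 h 2 were higher and 1 lower. The counts at 24 and 48 h lie near the shares of all genes called there, 12.5% and 15.0%. DDIT3 (CHOP), a transcription factor of the stress response, had levels of 5.13, 5.12 and 7.74 at 0 h, 8.76, 8.83 and 7.96 at 24 h and 8.41, 9.06 and 7.86 at 48 h. It rose by 2.52 at 24 h (SE 0.53, adjusted p = 0.00328) and by 2.45 at 48 h (0.00315), and its replicate 3 of 0 h stood far above the others, as that of SLC7A11 did. ASNS, asparagine synthetase, had 8.11, 8.28 and 9.19 at 0 h and 10.19, 10.12 and 9.25 at 48 h (difference 1.32, SE 0.35, adjusted p = 0.0135). Its call was lost without replicate 1 or 2 of either time (adjusted p = 0.0604 to 0.0683). XPOT, which exports tRNA from the nucleus, fell by 1.09 at 12 h (SE 0.17, adjusted p = 0.000597), to 8.23, 8.65 and 8.50 from 9.44, 9.34 and 9.86. Its call at 8 h, the only one of the list there, was lost in 7 of 13 alternative fits (adjusted p up to 0.203). That at 48 h was lost in 3 of 13 (up to 0.0855). PSAT1, an enzyme of serine synthesis, had 8.33, 8.43 and 8.97 at 0 h, 7.66, 7.50 and 7.52 at 12 h and 9.21, 9.25 and 8.58 at 48 h. It was called as lower at 12 h (-1.02, adjusted p = 0.0293), a call lost without replicate 2 or 3 of 0 h or any 12 h array (adjusted p = 0.0584 to 0.134), and was not called at 48 h. MTHFD2 (12 and 24 h, lower) and EIF2AK4 (24 h, higher) made up the rest of these calls and were named after their values were seen. The list's median difference was -0.31 at 8 h and 0.19 at 48 h, against -0.02 and 0.05 over all genes. The members with a printed C/EBP-ATF match, SLC1A4, SLC3A2, SLC38A1, SLC7A1 and SLC1A5, had 0 calls at single times against 0 h, while SLC38A1 passed the F test. SLC38A2 and SLC43A1 had no match, which says only that these letters are not in their windows.

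The glutathione and NRF2 list holds genes for the pathway that SLC7A11 supplies with cystine. Of its 16 measured genes, 5 passed the F test, against 16.4% of all genes. None was called at 4 h by limma, where 1.75% of all genes were called. At an unadjusted p under 0.05 there were 5, against 13.0% of all genes. At 8 h 2 were higher and at 12 h 3 were higher, where 6.68% and 8.05% of all genes were called. At 24 h 7 were higher and 1 lower, and at 48 h 7 were higher and 0 lower. Of all genes, 12.5% and 15.0% were called at 24 and 48 h. The list's median difference was 0.60 at 48 h, against 0.05 over all genes. SRXN1, sulfiredoxin, rose from 4.47, 5.16 and 5.14 at 0 h to 6.75, 6.55 and 7.62 at 8 h (difference 2.05, SE 0.32, adjusted p = 0.000763), and by 2.37 at 24 h. NQO1, a quinone reductase, had 4.42, 4.42 and 4.66 at 0 h and 6.01, 6.53 and 5.95 at 48 h, and rose by 1.66 (SE 0.24, adjusted p = 8.7e-05). GCLC, the catalytic subunit of the enzyme that begins glutathione synthesis from cysteine, had 8.15, 8.16 and 8.63 at 0 h and 9.30, 9.69 and 9.29 at 48 h, and rose by 1.12 (SE 0.17, adjusted p = 0.000178). TXNRD1, thioredoxin reductase, rose by 0.91 at 24 h (SE 0.20, adjusted p = 0.00531). Its calls at 8, 12 and 48 h each ended on leaving out replicate 1 of 0 h (adjusted p = 0.150, 0.115 and 0.0576). Those at 8 and 12 h also ended without other single arrays and with median centring (0.0711 and 0.0889). That at 8 h ended with only the arrays compared as well (0.0885). The single gene called as lower was TXN, thioredoxin, at 24 h (-0.58), named after its value was seen.

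The list for mTORC1 and amino acid sensing holds genes of the lysosomal pathway that reads leucine and arginine. Of its 24 measured genes, 6 passed the F test, against 16.4% of all genes. Every call against 0 h was higher, with 3, 5, 6, 5 and 5 genes at the successive times, where 1.75%, 6.68%, 8.05%, 12.5% and 15.0% of all genes were called in either direction. The list's median difference was 0.10 at 48 h, against 0.05 over all genes. SESN3, a sestrin that restrains mTORC1, had 7.92, 7.72 and 8.56 at 0 h and 10.01, 9.91 and 9.86 at 12 h, and rose by 1.86 (SE 0.20, adjusted p = 1.3e-05). RRAGC, a Rag GTPase, was called at all 5 times, with 7.34, 7.12 and 7.93 at 0 h, 8.60, 8.69 and 8.97 at 4 h (difference 1.29, SE 0.20, adjusted p = 0.00264) and 8.70, 9.24 and 8.95 at 48 h (1.50). RRAGD, another Rag GTPase, rose by 1.70 at 48 h (SE 0.37, adjusted p = 0.00351), to 4.83, 5.47 and 6.54 from 3.46, 3.59 and 4.68. Its call at 12 h (adjusted p = 0.0344) was lost in 7 of 13 alternative fits, among them quantile normalization (0.0568), median centring (0.0639) and those without replicate 1 or 2 of 0 h or any 12 h array (0.0522 to 0.139). FNIP1, part of the complex that acts on RRAGC and RRAGD, had 7.47, 6.99 and 8.37 at 0 h and 9.09, 9.18 and 9.29 at 48 h, and rose by 1.58 (SE 0.24, adjusted p = 0.000175). Its call at 4 h was lost in 8 of 13 alternative fits (adjusted p up to 0.235). Among them were those without any 1 of 5 arrays (replicates 1 and 2 of 0 h and each 4 h array). The others were median centring (0.0707), the replicate block (0.0525) and only the arrays compared (0.210). The FNIP1 call at 24 h was lost in 4 of 13, among them those without replicate 1 or 2 of 0 h or replicate 2 of 24 h (0.0602 to 0.0994). SESN3 was also called at 4 h (1.07, adjusted p = 0.0100). This call was lost without replicate 2 of 0 h (0.0566) and with only the arrays compared (0.0729).

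Of the 17 measured enzymes that use the transported amino acids, 4 passed the F test (16.4% of all genes did). Against 0 h, limma called 0 at 4 h and 0 at 8 h, where 1.75% and 6.68% of all genes were called. At an unadjusted p under 0.05 there were 2 and 3, against 13.0% and 17.6% of all genes. Later calls were 1 lower at 12 h, 1 higher and 2 lower at 24 h, and 2 higher and 2 lower at 48 h. In turn, 8.05%, 12.5% and 15.0% of all genes were called at 12, 24 and 48 h. KYNU, kynureninase, had 6.90, 6.40 and 6.96 at 0 h and 7.99, 8.17 and 7.27 at 48 h, and rose by 1.06 (SE 0.25, adjusted p = 0.00643). IDO1, which starts the breakdown of tryptophan on the same pathway, had 2.60, 2.90 and 2.83 at 0 h, near the lower quartile of the arrays, and 7.22, 6.75 and 2.97 at 48 h. Its difference of 2.88 (SE 0.69, adjusted p = 0.00741) came from replicates 1 and 2 of 48 h, replicate 3 lay close to 0 h, and the call was lost without replicate 1 (adjusted p = 0.0510). BCAT1, which begins the breakdown of branched-chain amino acids, fell by 0.95 at 12 h (SE 0.17, adjusted p = 0.00158), to 8.53, 8.90 and 8.49 from 9.41, 9.62 and 9.75. PPAT, which uses glutamine for purine synthesis, was called as lower at 24 h, with 7.86, 8.15 and 7.70 against 8.46, 8.34 and 8.64 at 0 h (-0.58, adjusted p = 0.0299). That call was lost without replicate 1 or 3 of either time (adjusted p = 0.0698 to 0.121) and with only the arrays compared (0.0668). The remaining calls at 48 h, GOT2 (-0.56) and SHMT1 (-0.90), were named after their values were seen. The list's median difference at 48 h was -0.02, against 0.05 over all genes.

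**Figure D5:**
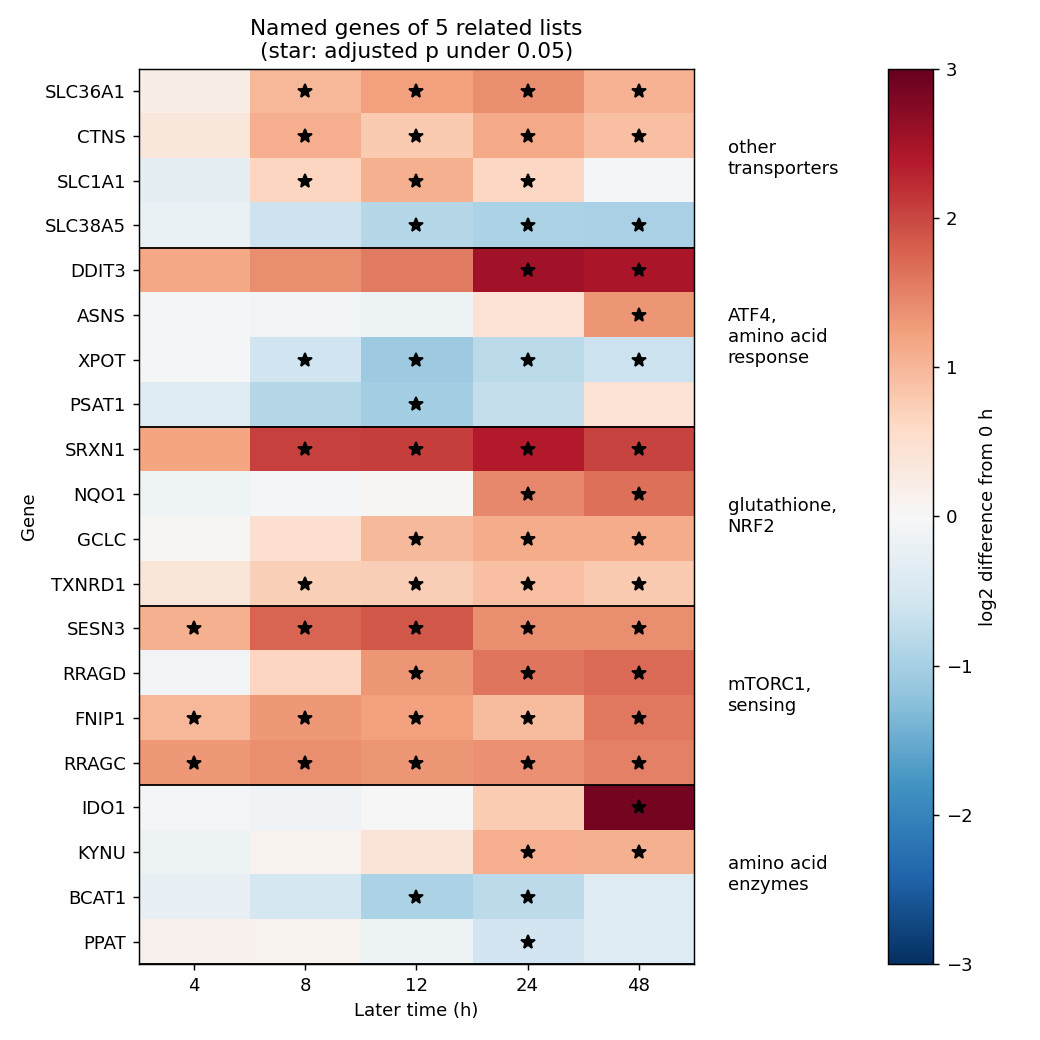
Difference in log2 intensity from 0 h by colour (red higher, blue lower) for the named genes of the 5 related lists (rows) at the 5 later times in h (columns), with a star where the adjusted p was under 0.05. The rows of each list are the genes past the F test that lay farthest from 0 h, a choice that favours strong colours and stars. The 4 mTORC1 genes, of 24 measured, are red with a star from 12 h on. That list's median difference was 0.09, 0.13 and 0.10 at 12, 24 and 48 h. The stars of RRAGD at 12 h and FNIP1 at 24 h were lost in 7 and 4 of 13 alternative fits. SRXN1 and SESN3 were above 0 h by 2.05 and 1.74 at 8 h.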

How the data were processed

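Total RNA of Raji cells was hybridised to 18 Affymetrix arrays, 3 per harvest time, with biotinylated cDNA made from 200 ng of RNA, per the labels' protocols. The authors deposited log2 intensities, 1 per probe set. The log base was read from the range of the values, and software, background correction and normalization are not given in the sources used here, so the values were used as deposited. The platform's gene table named 1 gene for 19460 of 33297 probe sets, several for 1754 and none here for 12083. The brightest 1-gene probe set stood for each of 18417 genes.

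limma 3.58.1 in R 4.3.3 was fitted to all 18 arrays with harvest time as the only term (12 residual and 5.58 prior degrees of freedom), with two-sided tests and Benjamini-Hochberg adjustment over all genes within each comparison. Calls had an adjusted p under 0.05. The fit was tested on simulated data for 48 h against 0 h over 18417 genes. It recovered 70% of 100 genes changed by 1 and 96% of 100 changed by 2 on the log2 scale, with 8 false calls. The simulated noise was independent between genes, without the array deviations that the members share, and far fewer genes were changed than the 2768 called at 48 h. These rates therefore check the fit and do not give the power for the members. Whether replicate numbers pair the arrays was checked by the correlation of their deviations from the means of their times. All 3 same-number pairs were over 0.1 in 2 of 15 pairs of times, 0 h with 8 h (0.14 to 0.20) and 4 h with 8 h (0.18 to 0.60), so the blocked value is given beside a result of these comparisons where it changes the call. Ratios of partner genes had exact permutation tests. The number of arrays limits the precision. The limma p-values rest on the spread between replicates within a time, pooled over the 6 times and moderated across genes. Those of the permutation tests rest on the arrays of the 2 times compared. Tables and figures used Python 3.11.15, pandas 2.3.3 and matplotlib 3.10.9.

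The members and the related lists were chosen with earlier results of these data known. All 10 members were named, with up to 4 genes of each list (of those past the F test, the ones farthest from 0 h at any time), and the 3 genes most like each of the 2 members with the smallest F test p. The alternatives tried were array medians set equal, quantile normalization, a filter on genes below the lower quartile of mean level, the mean of a gene's probe sets, array weights, the replicate number as a block, a fit of only the arrays compared and leaving out each array in turn.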

Additional observations from a re-analysis of the deposited data

How the results depend on the processing

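No called difference of a member changed sign in any alternative fit. The replicate block, the fit of only the arrays compared and the filter on dim genes cannot change the differences themselves. Nor can the mean of a gene's probe sets, other than for SLC1A5. Of 650 single differences recomputed, most were uncalled as reported and had no call to lose. In all, 611 kept their side of the threshold with no change of sign larger than their standard error. A call was gained by 22 and lost by 14, and 3 uncalled differences changed sign by more than their standard error. The losses fell on few calls: SLC43A1 at 8, 12 and 24 h in 4, 5 and 4 of 13 fits, and SLC7A11 at 48 h in 1. The count of members called by the F test, 3, ran from 1 to 4 when single arrays were left out and was 6 with array weights, which added SLC7A11, SLC7A1 and SLC7A7. At 4 h the count was 0 throughout. At 8 h the count of 1 ran from 0 to 2 on leaving out arrays. It was 2 with quantile normalization, without genes below the lower quartile of mean level, with array weights and with the replicate block, each adding SLC7A1, and 0 with only the arrays compared. At 12 h the count of 1 ran from 0 to 1 on leaving out arrays. It was 2 with quantile normalization and with only the arrays compared, both adding SLC7A1, and 3 with median centring and with array weights, both adding SLC7A1 and SLC38A1. At 24 h the count of 1 ran from 0 to 1 on leaving out arrays. It was 2 with quantile normalization and with the replicate block, both adding SLC7A5, and 3 with array weights, which added SLC7A5 and SLC7A11. With only the arrays compared SLC7A5 took the place of SLC43A1 there. At 48 h the count of 2 ran from 1 to 3 on leaving out arrays, and quantile normalization gave 4, adding SLC7A5 and SLC43A1. There, array weights gave 3, adding SLC1A4, and the replicate block gave 3, adding SLC43A1. Between neighbouring times array weights gave 2, SLC7A7 and SLC43A1 from 4 to 8 h, against 0 otherwise. The estimated weights ran from 0.246 to 5.18, both on 8 h arrays. The cause of these shifts was not tested. The counts of the related lists also moved: over 13 alternatives the ATF4 list had 0 to 5 calls at 8 h (1 as reported), 1 to 5 at 12 h (3), 3 to 7 at 24 h (4) and 2 to 5 at 48 h (3). The glutathione list had 1 to 4 at 8 h (2) and 5 to 11 at 48 h (7), the mTORC1 list 1 to 5 at 4 h (3), and the enzymes 0 to 1 at 8 h (0) and 1 to 6 at 48 h (4). The ATF4 and glutathione lists had 0 to 1 at 4 h (0 for both).

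For the comparisons other than 8 h with 0 or 4 h, not all 3 same-number pairs were over 0.1, which does not exclude pairing. These pairs ran from 0.08 to 0.32 for 0 h with 4 h, from 0.004 to 0.30 for 24 h with 48 h and from -0.24 to -0.03 for 12 h with 24 h. In all, 20 of 45 same-number pairs of arrays had deviations that correlated above 0.1 (range -0.24 to 0.60, median 0.08, against -0.06 for other pairs), and 9 of 18 arrays correlated best with their own number. With the replicate block the F test called 3218 genes in place of 3023, and SLC7A5 at 24 h (adjusted p = 0.0344), SLC7A1 at 8 h (0.0486) and SLC43A1 at 48 h (0.0432) gained a call.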
